A study of Mus musculus musculus x M. m. domesticus and Mus musculus musculus x Mus musculus castaneus and Mus musculus domesticus with 42 samples.

Results

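The tissue kallikreins of testis are described here: Klk1 and its relatives Klk1b21, Klk1b22, Klk1b24 and Klk1b27. The 5 genes were chosen with earlier results of these data known, so the member counts below do not come from a blind choice. Their probe sets were taken by symbol, as every probe set of the array whose platform annotation is or includes 1 of these 5 names. That gave 8 of 45037 probe sets and 5 of 19324 distinct gene symbols. Klk1 had 4 probe sets, and Klk1b21, Klk1b24 and Klk1b27 had 1 each. Klk1b22 was represented by 1425182_x_at alone, which the annotation gives to both Klk1b9 and Klk1b22, so the 2 genes cannot be separated. The study measured brain, liver and testis of 14 males on 42 Affymetrix arrays, 2 males for each of 7 genotypes. Wild-derived inbred lines of 3 house mouse subspecies, musculus, domesticus and castaneus, were the parents. The other 4 genotypes were the reciprocal F1 of musculus with domesticus and of musculus with castaneus, each written with the mother first. Males were 45 days old in domesticus and 47 days in musculus and castaneus. The musculus x domesticus F1 were 53 days old, the domesticus x musculus F1 50, the musculus x castaneus F1 53 and the castaneus x musculus F1 54. Musculus and castaneus were the same age. In every other comparison of genotypes made here age differed as well, so age and genotype cannot be told apart. The labels call the replicates separate males, and each subspecies was represented by its own inbred stock, so a difference is one between these lines.

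Tissue kallikreins are secreted serine proteases. Klk1 cuts kininogen and releases kinin peptides, which act on bradykinin receptors until peptidases such as angiotensin-converting enzyme destroy them. In rodents Klk1 is accompanied by a cluster of close duplicates, the Klk1b genes, many of which are abundant in salivary gland. Klk1b21, Klk1b24 and Klk1b27 are known from mouse Leydig cells, the cells between the seminiferous tubules that make testosterone, and Klk1b9 and Klk1b22 encode proteins that bind epidermal growth factor. Because the duplicates are so similar in sequence, a probe for one can also bind transcripts of another, and a probe set with the suffix _x_at is designed with probes that match several transcripts. Whether probes bound a paralog, or bound less well to the sequence of 1 subspecies, was not tested.

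Signals are MAS5 intensities on a linear scale, and those of single genes are compared only within a probe set. Markers of a cell type are also given as sums of signals, in which the brightest probe sets weigh most. These were Clu for Sertoli cells (testis median 11709) and Cyp17a1 for Leydig cells (4683.5). Differences are on the scale log2(signal + 31) with their standard error, and a call is a Benjamini-Hochberg adjusted p under 0.05 over all 27022 probe sets tested in testis with limma. Of the 8 probe sets, 7 passed the filter on low signals and Klk1b27 did not. The testis of the musculus x castaneus F1 stood apart from the others: its mean profile correlated with those of the other genotypes at r of 0.894 to 0.949. Its summed signal of 11 Sertoli cell markers was 30348 to 33158, against 17669 to 23162 on the other 12 arrays. Summed spermatid markers were 80190 to 89901 there and 93664 to 154974 elsewhere. In whole testis, fewer cells of a type and less RNA per cell cannot be told apart.

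Klk1b24, a Leydig cell kallikrein, had its lowest testis signals in musculus, 64 and 92. In domesticus the arrays read 479 and 911, and in castaneus 3710 and 1205. All arrays of both other parents lay above musculus, and castaneus lay above domesticus. The F1 of the domesticus cross read 74 and 128 with a musculus mother and 121 and 99 with a domesticus mother. Both stayed far below domesticus and near musculus, whichever way the cross was made. The musculus x castaneus F1 read 1807 and 2289, within the span of its castaneus parent. The castaneus x musculus F1 read 309 and 207, between its parents and well below the opposite F1. In order of the means, castaneus (2458 ± 1771, SD, n = 2) and the musculus x castaneus F1 (2048 ± 341) overlapped. Domesticus (695 ± 305) and the castaneus x musculus F1 (258 ± 72.1) were each clear of their neighbours. The lowest levels were those of the domesticus x musculus F1 (110 ± 15.6), the musculus x domesticus F1 (101 ± 38.2) and musculus (78.0 ± 19.8). Of these, the musculus x domesticus F1 overlapped both others.

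**Figure D1:**
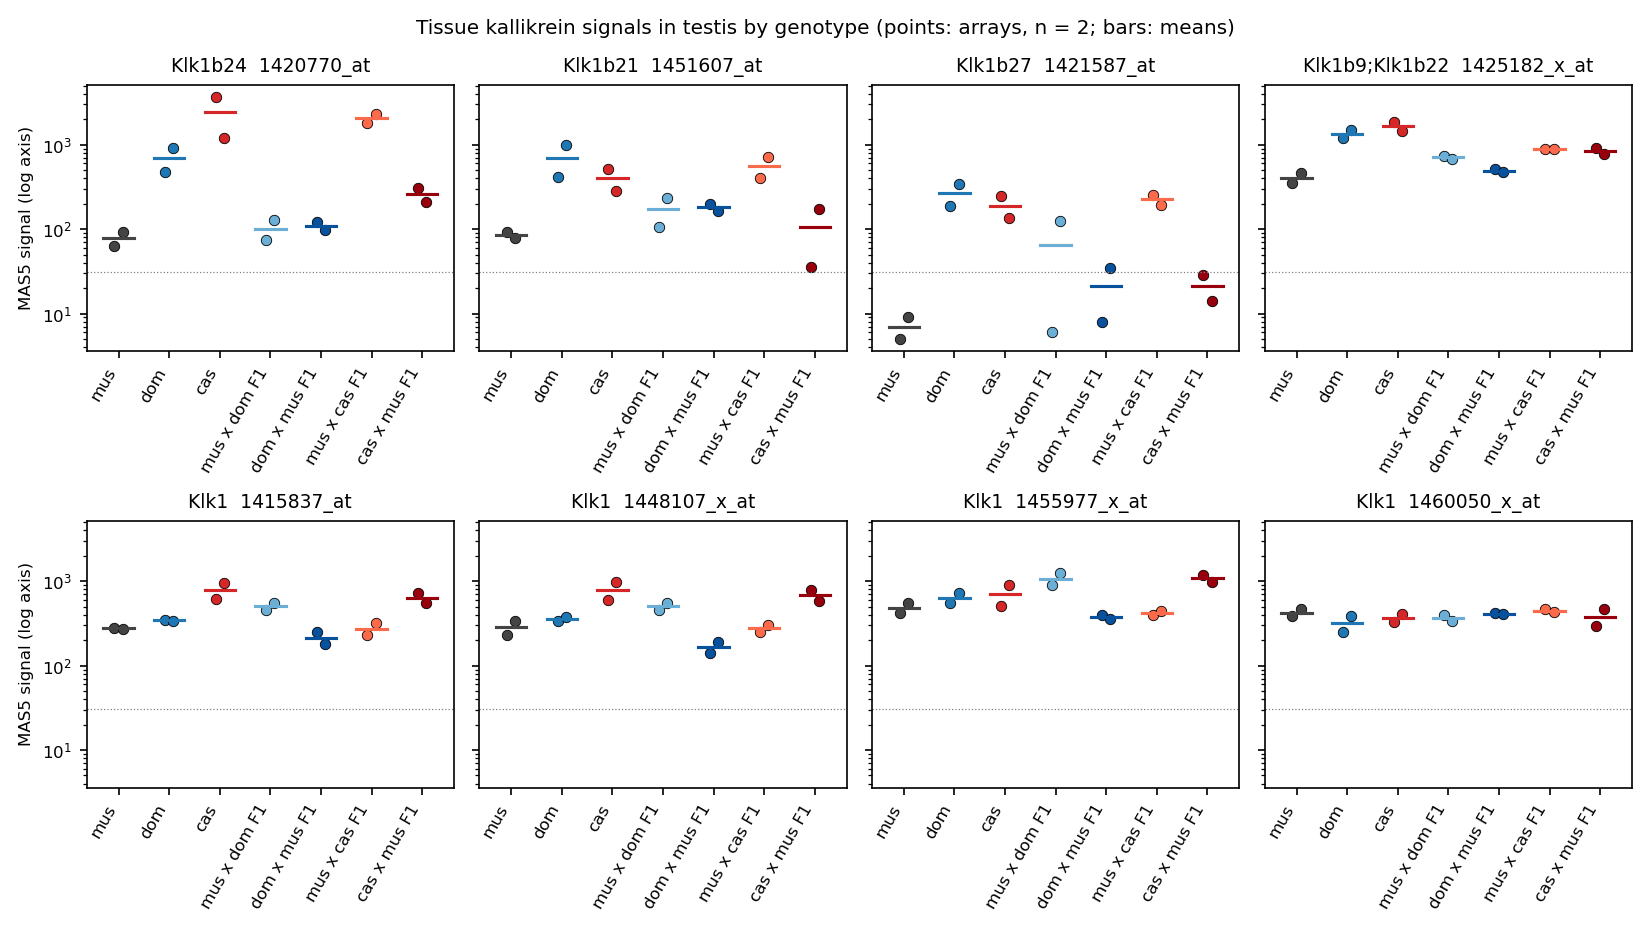
Testis signals of the 8 tissue kallikrein probe sets on a log axis, 1 panel each, by genotype (mus, musculus; dom, domesticus; cas, castaneus; mother first in the F1). Points are the 2 arrays of a genotype, bars their mean and the dotted line the offset of 31; Klk1b24, Klk1b21 and Klk1b27 are high in domesticus, castaneus and the mus x cas F1, while 3 of the Klk1 probe sets are higher in the mus x dom F1 and the cas x mus F1 than in the F1 reciprocal to each, and 2 of these are also high in castaneus.

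Klk1b21, another Leydig cell kallikrein, followed a similar course with a smaller range. Its signals were 92 and 79 in musculus, 416 and 993 in domesticus and 522 and 283 in castaneus, so both other parents lay above musculus and overlapped each other. The musculus x castaneus F1 was as high as its castaneus parent, with 402 and 716, and the castaneus x musculus F1 was low, with 36 and 175. Both F1 of the domesticus cross were low as well, with 107 and 236 for a musculus mother and 199 and 163 for a domesticus mother.

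Klk1b27 lay below the offset of 31 on 6 of the 14 testis arrays. It read 5 and 9 in musculus, against 187 and 345 in domesticus and 245 and 135 in castaneus. The musculus x castaneus F1 read 257 and 195 and the castaneus x musculus F1 29 and 14, which placed the former among the high parents and the latter near musculus. In the domesticus cross the arrays read 6 and 124 with a musculus mother and 8 and 35 with a domesticus mother, so the males of the former disagreed. Because the probe set fell below the filter it was tested only with the filter removed, over 45037 probe sets. There it rose over musculus in domesticus (limma, adjusted p = 0.00551) and in castaneus (adjusted p = 0.0144). No size is given, since with musculus below the offset it would depend on the offset.

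The probe set shared by Klk1b9 and Klk1b22 read 353 and 460 in musculus, 1195 and 1492 in domesticus and 1832 and 1463 in castaneus. Its F1 were intermediate. The domesticus cross gave 739 and 674 with a musculus mother and 512 and 471 with a domesticus mother. The castaneus cross gave 887 and 891 with a musculus mother and 912 and 775 with a castaneus mother. All 8 F1 arrays lay above musculus and below the other parent of their cross.

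Klk1 itself, the kinin-releasing enzyme, had another order of genotypes. On 1415837_at, the Klk1 probe set without the _x_at suffix, musculus read 280 and 275, domesticus 351 and 340 and castaneus 609 and 947. Castaneus was clear of both other parents. The musculus x domesticus F1 read 462 and 547, above both its parents, and the domesticus x musculus F1 247 and 179, below both. The castaneus x musculus F1 read 721 and 556, overlapping castaneus, and the musculus x castaneus F1 233 and 317, on either side of musculus. High Klk1 in the F1 therefore went with a musculus mother in 1 cross and with a castaneus mother in the other.

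Klk1 probe set 1448107_x_at gave nearly the same picture (r of 0.954 with 1415837_at over the 14 testis arrays, as a description). It read 452 and 555 against 142 and 193 in the reciprocal F1 of the domesticus cross, and 251 and 300 against 792 and 581 in those of the castaneus cross. 1455977_x_at shared the F1 pattern, with 904 and 1239 against 399 and 359, and 401 and 444 against 1176 and 979. It did not separate the parents, which read 425 and 550 in musculus, 557 and 715 in domesticus and 510 and 896 in castaneus. The last Klk1 probe set, 1460050_x_at, was flat: it lay between 247 and 470 on all 14 testis arrays and correlated with the other 3 at r of -0.315 to -0.266. The probe sets annotated to Klk1 thus disagree, and each is named with its own values below.

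The parents were compared to ask which transcripts the subspecies express at different levels. In domesticus, 3 of the 7 tested member probe sets rose over musculus and none fell, beside 12.8% of all tested probe sets called and 6.95% called higher. Klk1b24 rose by 2.68 ± 0.426 (6.41-fold on this scale, adjusted p = 0.000774). Klk1b21 rose by 2.54 ± 0.515 (adjusted p = 0.00465), a call that was lost without domesticus replicate 2 (1.94, adjusted p = 0.0703). The Klk1b9 and Klk1b22 probe set rose by 1.65 ± 0.175 (adjusted p = 2.45e-05). The 4 Klk1 probe sets differed by -0.41 to 0.36 and did not pass. The median of the 7 was 0.36, against 0.00 for all tested probe sets.

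In castaneus, 5 of the 7 rose over musculus and none fell, beside 13.5% called and 7.48% called higher over the array. Klk1b24 rose by 4.31 ± 0.426 (19.9-fold, adjusted p = 1.5e-05) and the Klk1b9 and Klk1b22 probe set by 1.94 ± 0.175 (adjusted p = 6.54e-06). Klk1 rose by 1.36 ± 0.232 on 1415837_at (adjusted p = 0.00133) and by 1.36 ± 0.255 on 1448107_x_at (adjusted p = 0.00266). Its other probe sets differed by 0.46 and -0.18 and did not pass. Klk1b21 rose by 1.84 ± 0.515 (adjusted p = 0.03), but not without musculus replicate 1 (1.92, adjusted p = 0.103), musculus replicate 2 (1.76, adjusted p = 0.132) or castaneus replicate 1 (1.43, adjusted p = 0.208), nor with no filter (adjusted p = 0.0543). The median of the 7 was 1.36, against 0.04 for all tested probe sets. Both comparisons share the musculus arrays, so they are not independent.

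Castaneus was above domesticus in 3 of the 7 and below it in none, where 12.4% of all probe sets were called and 6.2% were higher. These were Klk1 on 1415837_at (1.07 ± 0.232, adjusted p = 0.0077) and on 1448107_x_at (1.04 ± 0.255, adjusted p = 0.0159), and Klk1b24 (1.63 ± 0.426, adjusted p = 0.0223). The call of Klk1b24 was lost without domesticus replicate 1 (1.19, adjusted p = 0.203) or castaneus replicate 1 (0.83, adjusted p = 0.234), and with only the 2 groups in the fit (adjusted p = 0.0593). That of 1415837_at was lost without domesticus replicate 2 (1.05, adjusted p = 0.0523) or castaneus replicate 2 (0.77, adjusted p = 0.107), and that of 1448107_x_at without any of domesticus replicate 1 (0.98), domesticus replicate 2 (1.10) or castaneus replicate 2 (0.69). Klk1b21 and the Klk1b9 and Klk1b22 probe set differed by -0.70 and 0.29 and did not pass.

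The F1 were compared with the mean of their parents on the log2 scale to ask whether expression was additive. In the domesticus cross none of the 7 member probe sets passed in either F1, beside 0.292% of all probe sets with a musculus mother and 0.27% with a domesticus mother. At an unadjusted p under 0.05 in limma there were 4 and 5 of the 7, beside 5.99% and 5.21% of all. Klk1b24 lay at -1.08 ± 0.369 and -0.96 ± 0.369 from the mean of the parents. Klk1 on 1455977_x_at lay at 0.90 ± 0.212 with a musculus mother and at -0.51 ± 0.212 with a domesticus mother.

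Against domesticus itself, a comparison added after the data were seen, 2 of the 7 were lower in each F1 and none higher, beside 1.77% and 1.62% of all probe sets called. Klk1b24 differed by -2.42 ± 0.426 in the musculus x domesticus F1 (adjusted p = 0.00924) and by -2.30 ± 0.426 in the domesticus x musculus F1 (adjusted p = 0.0142). The former call was lost without domesticus replicate 2 (-1.98) or F1 replicate 1 (-2.12), and the latter without domesticus replicate 2 (-1.86) or either F1 replicate (-2.41 and -2.19). The Klk1b9 and Klk1b22 probe set differed by -0.89 ± 0.175 (adjusted p = 0.0185) and -1.39 ± 0.175 (adjusted p = 0.000791). Its call with a musculus mother was lost without domesticus replicate 2 (-0.73) or either F1 replicate (-0.95 and -0.83), and with only the 2 groups in the fit (adjusted p = 0.0566). Klk1b21 differed by -1.82 ± 0.515 and -1.68 ± 0.515 and did not pass.

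In the musculus x castaneus F1, 4 of the 7 differed from the mean of the parents, but so did 35.3% of all probe sets. Klk1b24 was higher by 2.10 ± 0.369 (adjusted p = 0.00074) and Klk1b21 by 1.37 ± 0.446 (adjusted p = 0.0289), while Klk1 was lower on 1415837_at (-0.70 ± 0.201, adjusted p = 0.0149) and 1448107_x_at (-0.71 ± 0.221, adjusted p = 0.0236). With the mean of the parents taken on the linear scale, Klk1b24 was at 0.87 (adjusted p = 0.126) and Klk1b21 at 1.09 (adjusted p = 0.0887), and neither passed. Leaving out single arrays ended other calls. Klk1b21 did not pass without musculus replicate 2 (1.33), castaneus replicate 2 (1.17) or F1 replicate 2 (0.98), nor with no filter (adjusted p = 0.0537) or quantile normalization (1.16, adjusted p = 0.0511). 1415837_at did not pass without castaneus replicate 2 (-0.55) or F1 replicate 1 (-0.51), and 1448107_x_at without musculus replicate 2 (-0.59), castaneus replicate 2 (-0.53), F1 replicate 1 (-0.59) or F1 replicate 2 (-0.82).

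In the castaneus x musculus F1 none of the 7 passed, beside 0.3% of all probe sets, and 2 of 7 had an unadjusted p under 0.05 in limma, beside 8.49% of all. Klk1b24 was at -0.76 ± 0.369 and Klk1 on 1455977_x_at at 0.87 ± 0.212. Without castaneus replicate 2 the count was 1.

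Against castaneus itself, also added after the data were seen, the 2 F1 differed in which kallikreins were lower. In the musculus x castaneus F1, 3 of the 7 were lower and none higher, beside 27.4% of all called: Klk1 on 1415837_at (-1.38 ± 0.232, adjusted p = 0.000796) and 1448107_x_at (-1.39 ± 0.255, adjusted p = 0.00146) and the Klk1b9 and Klk1b22 probe set (-0.86 ± 0.175, adjusted p = 0.00283). Klk1b24 was at -0.06 ± 0.426 there. In the castaneus x musculus F1, 2 of the 7 were lower and none higher, beside 2.24% of all. These were Klk1b24 (-2.92 ± 0.426, adjusted p = 0.00189) and the Klk1b9 and Klk1b22 probe set (-0.94 ± 0.175, adjusted p = 0.0119). The latter call was lost without castaneus replicate 1 (-0.78) or F1 replicate 2 (-0.82). Klk1 on 1415837_at was at -0.25 ± 0.232 there and did not pass.

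The reciprocal F1 have the same autosomal parents and differ in which subspecies was the mother. That sets the X and Y chromosomes, the mitochondria, the maternal environment and which parent gave each autosomal copy. In the castaneus cross, 5 of the 7 member probe sets differed, beside 28.4% of all. Klk1b24 was higher in the F1 with a musculus mother by 2.86 ± 0.426 (7.26-fold, adjusted p = 0.000486) and Klk1b21 by 2.28 ± 0.515 (adjusted p = 0.00601), where 17.9% of all probe sets were called higher. Klk1 was lower in that F1 on 3 probe sets, where 10.6% of all were called lower: -1.13 ± 0.232 on 1415837_at (adjusted p = 0.00347), -1.22 ± 0.255 on 1448107_x_at (adjusted p = 0.00399) and -1.29 ± 0.245 on 1455977_x_at (adjusted p = 0.00225). The Klk1b9 and Klk1b22 probe set was at 0.08 ± 0.175. The call of Klk1b21 was lost without musculus x castaneus F1 replicate 2 (1.88, adjusted p = 0.0644) or castaneus x musculus F1 replicate 1 (1.47, adjusted p = 0.0848), and that of 1448107_x_at without the latter (-1.0, adjusted p = 0.051). The median of all tested probe sets was itself 0.24 here, and 0.03 after quantile normalization of the arrays. That normalization left Klk1b24 at 2.78, Klk1b21 at 1.93 and the 3 Klk1 probe sets at -1.35 to -1.46, all called.

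In the domesticus cross, 2 of the 7 were higher with a musculus mother and none lower, beside 0.204% of all called and 0.181% called higher. They were Klk1 probe sets, 1448107_x_at (1.43 ± 0.255, adjusted p = 0.0392) and 1455977_x_at (1.41 ± 0.245, adjusted p = 0.0345). 1415837_at was at 1.14 ± 0.232 and did not pass (adjusted p = 0.0934), and Klk1b24 and Klk1b21 were at -0.12 ± 0.426 and -0.14 ± 0.515. Both calls were lost without any 1 of the 4 F1 arrays, at 1.25 to 1.62 for 1448107_x_at and 1.19 to 1.63 for 1455977_x_at, and also with no filter, quantile normalization, no trend in the variance prior or only the 2 groups in the fit. The 5 hepatocyte markers, a check for RNA of another organ, summed to 772 and 3216 on the musculus x domesticus F1 arrays and to 475 and 515 on the reciprocal ones. On 13 of the 14 liver arrays 1448107_x_at read 5 to 147 and 1455977_x_at 20 to 409. The liver of musculus x castaneus F1 replicate 2, described below, read 1102 and 3949. The part of liver RNA in the result was not tested.

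**Figure D2:**
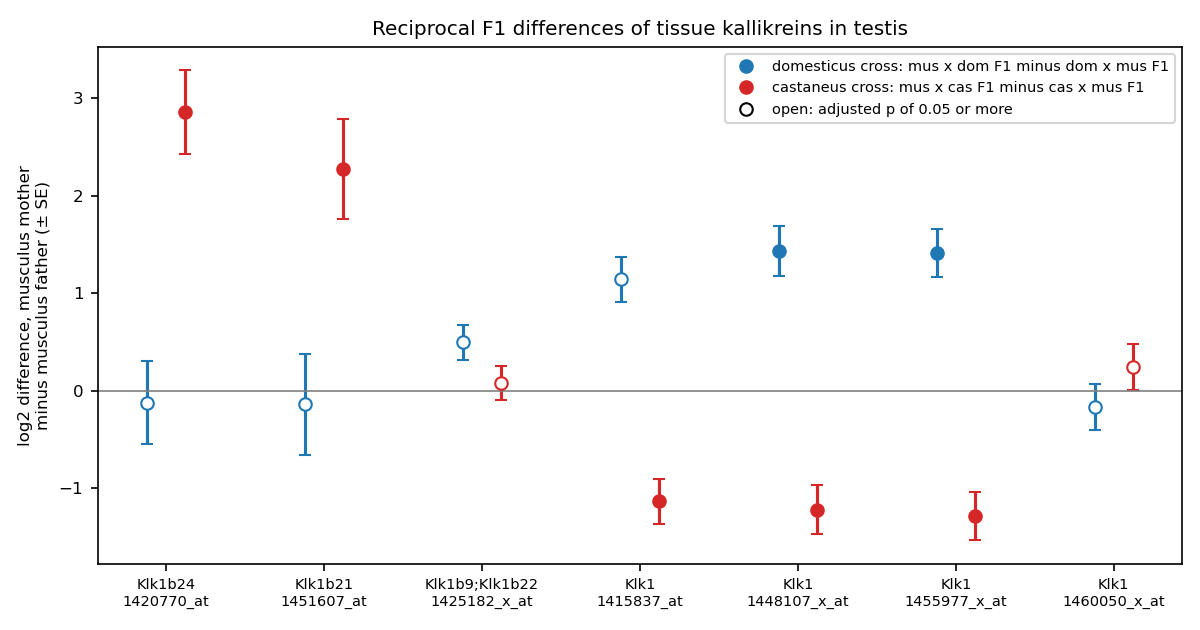
Reciprocal differences in testis for the 7 tested tissue kallikrein probe sets, as log2 differences (F1 of a musculus mother less F1 of a musculus father) with standard errors from limma (filled, adjusted p under 0.05). Klk1b24 and Klk1b21 are above 0 in the castaneus cross (2.86 and 2.28) and near 0 in the domesticus cross, while 3 Klk1 probe sets are above 0 in the domesticus cross (1.14 to 1.43) and below 0 in the castaneus cross (-1.29 to -1.13).

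Whether the reciprocal difference itself differed between crosses was tested directly, in a comparison added after the data were seen. The domesticus cross minus the castaneus cross gave 4 calls among the 7 member probe sets, beside 6.58% of all. Klk1 passed on 1415837_at (2.28 ± 0.328, adjusted p = 0.00321), 1448107_x_at (2.65 ± 0.361, adjusted p = 0.00228) and 1455977_x_at (2.70 ± 0.346, adjusted p = 0.00223), and these calls stood without any single F1 array. Klk1b24 passed in the opposite direction (-2.98 ± 0.603, adjusted p = 0.0115), but not without musculus x domesticus F1 replicate 1 (-2.68, adjusted p = 0.0545) or musculus x castaneus F1 replicate 2 (-2.81, adjusted p = 0.0537). Klk1b21 was at -2.41 ± 0.729 and did not pass (adjusted p = 0.0671). The 3 Klk1 probe sets measure the same gene and are not independent.

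Markers of Leydig cells, in which these kallikreins are known, moved with Klk1b24 in part. The summed signal of 11 such markers was 13172 to 14106 in musculus, 18393 to 20238 in domesticus, 20274 to 27902 in castaneus and 29433 to 33519 in the musculus x castaneus F1. It was 15448 to 16659 in the musculus x domesticus F1, 17428 to 19837 in the domesticus x musculus F1 and, for the castaneus x musculus F1, 16243 to 20794. Of the 11, all were tested. In castaneus against musculus 2 rose (7.48% of all probe sets were called higher), Cyp17a1 (1.49), an enzyme of androgen synthesis, and Ptgds (1.70), a prostaglandin synthase. In domesticus 3 rose (6.95% of all), Cyp17a1 (1.35), Ptgds (1.17) and Agt, and Hsd3b1 (-1.03), a steroid dehydrogenase, fell. No size is given for Agt, which read 8 to 655 over the testis arrays, down to below the offset of 31. In the musculus x castaneus F1 against the castaneus x musculus F1 4 rose (17.9% of all): Cyp17a1 (1.17), Cyp11a1 (1.63), Vcam1 (1.35) and Hsd3b1 (0.89).

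Klk1b24 and the marker sum were set side by side as ratios of mean signals. Klk1b24 was 31.5 times as high in castaneus as in musculus, and the marker sum 1.77 times. For domesticus over musculus the ratios were 8.91 and 1.42, and for the musculus x castaneus over the castaneus x musculus F1 7.94 and 1.70. In both F1 of the domesticus cross Klk1b24 lay far below domesticus. The marker sum overlapped that of domesticus only in the domesticus x musculus F1. In the musculus x domesticus F1 (15448 to 16659) it lay between those of musculus (13172 to 14106) and domesticus (18393 to 20238). The domesticus x musculus F1 had 0.158 of the Klk1b24 signal of domesticus with 0.965 of its marker sum, and the musculus x domesticus F1 had 0.145 with 0.831. Over the 14 arrays, which share genotypes, Klk1b24 correlated with the single markers of the sum at r of -0.154 (Agt) to 0.871 (Cyp17a1), as a description. Klk1 on 1415837_at correlated with them at r of -0.508 (Star) to 0.373 (Ptgds), and with Cyp17a1 at r = -0.01. The part of Leydig cell RNA in the results was not tested further.

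**Figure D3:**
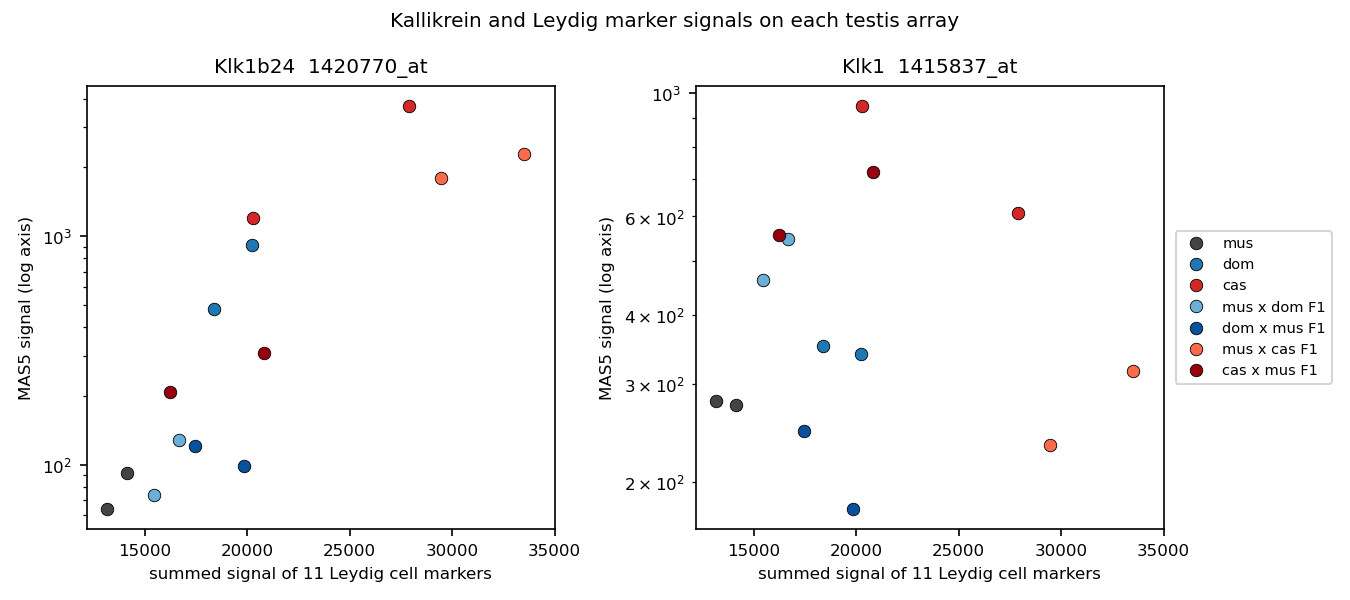
Signal of Klk1b24 (left) and Klk1 (right, 1415837_at) on a log axis against the summed signal of 11 Leydig cell markers, 1 point per testis array, coloured by genotype. Klk1b24 is highest on the arrays with the highest sums, but spans 99 to 911 among arrays with sums of 18393 to 20238, and Klk1 shows no such course.

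Kallikreins are also abundant in salivary gland and exocrine pancreas. Summed testis signals of 6 markers of these organs were 369 to 819 on the 14 arrays, highest in the musculus x castaneus F1 (720 and 819). Those of 8 markers of epididymis and accessory glands were 504 to 765, with 713 and 761 in that F1. Adipocyte markers (4 genes) summed to 971 to 1046 in musculus, 1366 to 1965 in domesticus and 2387 to 2649 in castaneus, with 2007 and 2025 in the musculus x castaneus F1 and 875 to 2031 on the other F1 arrays. Of the 2 tested, Fabp4 rose over musculus by 2.19 in domesticus and 3.56 in castaneus (adjusted p = 0.00338 and 7.63e-05), and Adipoq was at 0.17 and -0.18 and did not pass. The part of these tissues in the results was not tested.

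Brain and liver of the same males served as reference. Klk1b24 ranged from 64 to 3710 in testis (median 258), from 80 to 171 in liver (132) and from 42 to 117 in brain (66). Its musculus testis signals of 64 and 92 thus lay within its range in brain. Klk1b21 ranged from 36 to 993 in testis, 28 to 163 in liver and 22 to 82 in brain, and Klk1b27 from 5 to 345, 2 to 14 and 2 to 12. The Klk1b9 and Klk1b22 probe set ranged from 353 to 1832 in testis, above its highest signal in liver (253) and brain (171). Klk1 on 1415837_at ranged from 179 to 947 in testis and 3 to 36 in brain, with no overlap.

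In liver, Klk1 was low on 13 arrays and high on 1, on 3 of its probe sets. Its flat probe set 1460050_x_at read 468 to 905 on those 13 and 526 on the other. The liver of musculus x castaneus F1 replicate 2 read 953, 1102 and 3949 on 1415837_at, 1448107_x_at and 1455977_x_at, where the others reached at most 160, 147 and 409. The same array read 17223 for Cela1, 14030 for Ctrb1 and 7518 for Cpa1, enzymes of the exocrine pancreas, where the others reached at most 5831, 975 and 674. The other 3 markers of salivary gland and exocrine pancreas were not raised: Amy1 read 10264 (7708 to 14457 on the others), Smr3a 8 (5 to 21) and Prol1 8 (11 to 64). Klk1b24, Klk1b21 and Klk1b27 read 166, 50 and 6 there, within the range of the other livers. Klk1b5, another kallikrein, was raised (152 on 1449313_at, at most 12 elsewhere). The part of pancreas RNA in this liver value was not tested.

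Across tissues 4 member probe sets passed the filter on 42 arrays, and all 4 differed between testis and liver, as did 87.1% of all probe sets. Of these 3 were higher in testis (40.1% of all): Klk1 on 1455977_x_at by 2.12 ± 0.275 (adjusted p = 3.84e-08), Klk1b24 by 1.31 ± 0.134 (adjusted p = 3.45e-10) and the Klk1b9 and Klk1b22 probe set by 2.93 ± 0.164 (adjusted p = 2.84e-16). Without the male whose liver stood apart, the Klk1 difference was 2.45. These differences average the 7 genotypes. The filter took the mean over the 3 tissues, and the lowest mean signal tested was 105. Klk1 on 1455977_x_at (median 98 in liver, 22 in brain and 553.5 in testis) passed it through its testis signals. So did the Klk1b9 and Klk1b22 probe set (85.5, 99 and 831). For these probe sets a higher level in testis was thus partly set by the filter. Klk1b24 read 64 to 128 in testis of musculus and of both F1 of the domesticus cross, not above its liver range of 80 to 171. Against brain all 4 differed as well, beside 86.9% of all, and the same 3 were higher (35.4% of all), by 3.57 ± 0.275, 2.03 ± 0.134 and 2.62 ± 0.164. The flat probe set 1460050_x_at was lower in testis than in liver (-0.71 ± 0.0765, adjusted p = 1.08e-09) and brain (-0.39 ± 0.0765, adjusted p = 3.06e-05), the latter not after quantile normalization (-0.12, adjusted p = 0.137).

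**Figure D4:**
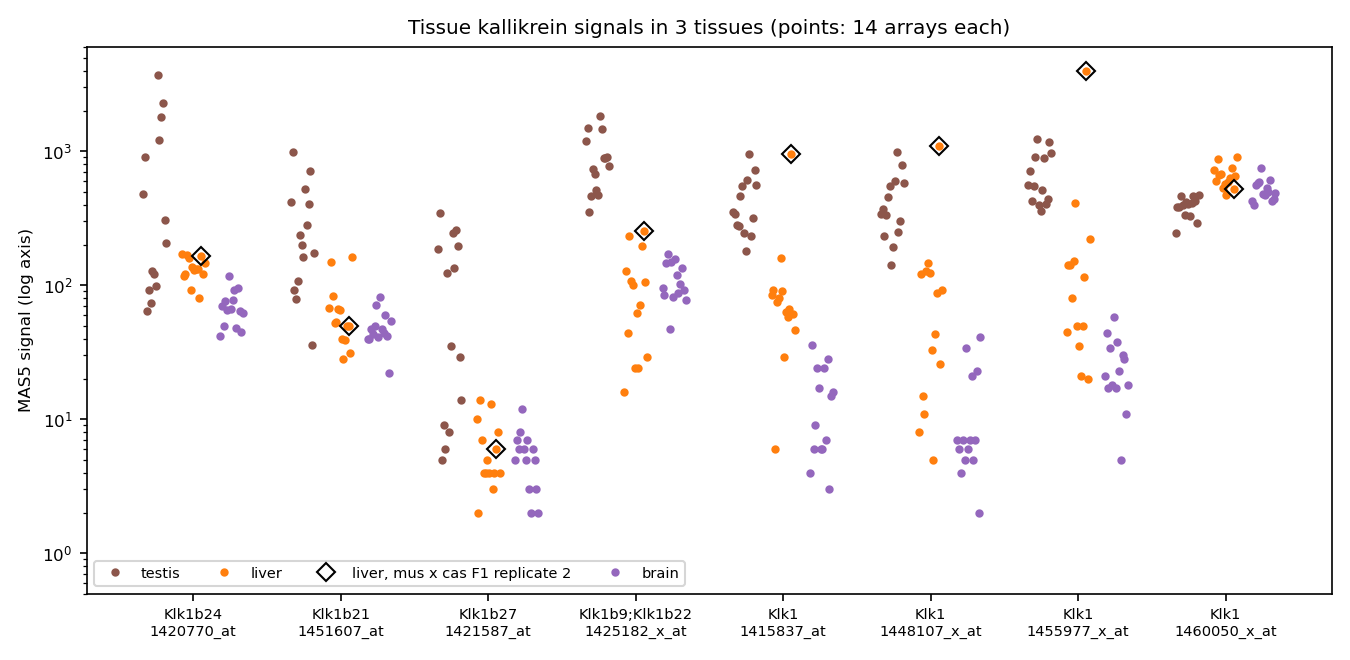
Signals of the 8 tissue kallikrein probe sets on a log axis in testis, liver and brain, 14 arrays of each tissue as points. The liver of musculus x castaneus F1 replicate 2 is marked by a diamond: it reads 953, 1102 and 3949 on 3 Klk1 probe sets, and Klk1b24 spans 64 to 3710 in testis against 80 to 171 in liver and 42 to 117 in brain.

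The subspecies differences of Klk1b24 and of the Klk1b9 and Klk1b22 probe set depended on tissue. In the test of whether domesticus minus musculus differed among the 3 tissues, 2 of the 4 members passed, beside 11.8% of all. Klk1b24 exceeded in testis its difference in liver by 2.69 and in brain by 2.80 (adjusted p = 0.000197), and the Klk1b9 and Klk1b22 probe set by 2.37 and 2.30 (adjusted p = 0.0102). For castaneus minus musculus 2 of 4 passed, beside 13.1% of all: Klk1b24 by 4.42 and 4.23 (adjusted p = 1.77e-07) and the Klk1b9 and Klk1b22 probe set by 2.86 and 2.45 (adjusted p = 0.00288). Both Klk1 probe sets tested did not pass. The count was 1 in place of 2 without the males musculus replicate 2 or domesticus replicate 1 in the former and without castaneus replicate 1 in the latter.

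Other Klk1-related genes had 5 members with a single-symbol probe set, of which 3 were tested. In domesticus minus musculus Klk1b1 was at -0.14, Klk1b5 at 0.20 and Klk1b8 at 0.05, and these did not pass. In castaneus all 3 rose over musculus, beside 7.48% of all probe sets called higher. Klk1b1 rose by 2.07, Klk1b5 by 0.83 and Klk1b8 by 0.79, with adjusted p of 0.000727, 0.00434 and 0.0023 in limma. Klk1b5 had the reciprocal pattern of Klk1: on 1449313_at it read 600 and 566 against 254 and 248 in the domesticus cross, and 237 and 236 against 627 and 638 in the castaneus cross. Its r with Klk1 on 1415837_at was 0.894. The annotated pseudogene Klk1b7-ps, named after its values were seen, read 7 and 5 in musculus against 628 and 1073 in domesticus and 377 and 356 in castaneus. More distant kallikrein-related peptidases had 3 tested members, with medians of 0.51 in domesticus and 0.35 in castaneus over musculus. None passed in limma, beside 12.8% and 13.5% of all probe sets called. At an unadjusted p under 0.05 there were 1 and 0 of the 3, beside 24.6% and 25.8% of all.

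Of the kallikrein-kinin system, 14 genes had a single-symbol probe set and 8 were tested. In domesticus 2 rose over musculus and 1 fell, beside 12.8% of all probe sets called. In castaneus 1 rose and 1 fell, beside 13.5%, and the medians were 0.15 and 0.04. Serpina5, an inhibitor of tissue kallikrein, rose in both, by 1.19 ± 0.209 and 2.47 ± 0.209 (adjusted p = 0.0016 and 3.88e-06). Cpn1, the catalytic subunit of carboxypeptidase N, which trims kinins, fell in both (adjusted p = 1.88e-09 and 1.28e-08). It read 14 to 1385 over the testis arrays, down to below the offset of 31, so no size is given. Mme, the kinin-degrading neprilysin, rose in domesticus by 0.71 ± 0.198 (adjusted p = 0.0299). The kininogen gene Kng1 and the receptor gene Bdkrb2 read at most 91 and 126 on any testis array, and the receptor gene Bdkrb1 at most 136. Ace, which destroys kinins, read 2042 to 7347 and was lower in the musculus x castaneus F1 than in its reciprocal (-1.25 ± 0.234, adjusted p = 0.00196), where 4 of the 8 were higher and 1 lower, beside 17.9% and 10.6% of all.

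All 6 measured genes of the list of kallikrein substrates were tested. Egf, whose product the growth factor-binding kallikreins bind, rose by 2.52 ± 0.211 in domesticus and by 1.98 ± 0.211 in castaneus over musculus (adjusted p = 3.13e-06 and 2.83e-05). Agt, angiotensinogen, rose over musculus in domesticus (limma, adjusted p = 6.58e-06) and was lower in castaneus than in domesticus (adjusted p = 3.65e-05). Agt read 8 to 655 over the testis arrays, down to below the offset of 31, so no size is given. The other 4 did not pass in a comparison of the parents. These transcripts and the kallikreins were measured in the same arrays, and no relation between them was tested.

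Genes whose course over the 14 testis arrays was most like a member were taken from 7321 candidate probe sets, by Pearson's r of log2 values as a description. Klk1b24 was most like Ttyh1 (0.943), Cwc22 (0.930), Igfbp6 (0.923), Fads1 (0.920) and Ces1d (0.913). Fads1, a fatty acid desaturase, had mean signals of 559 in musculus, 1837 in castaneus, 2522 in the musculus x castaneus F1 and 697 in the opposite F1. Klk1b21 and Klk1b27 were both most like Igfbp4 (0.888 and 0.919), which binds insulin-like growth factors. The Klk1b9 and Klk1b22 probe set was most like Csrnp1 (0.932), Lmbr1 (0.922) and Kcne2 (0.919). Among these candidates, which held no kallikrein, none was closer to Klk1 on 1455977_x_at than Rp2 (0.740). The kallikrein Klk1b5 was closer to it, at 0.792 on 1449313_at. Among the members, Klk1b21 and Klk1b27 (0.862) and Klk1b24 and Klk1b27 (0.847) were closest to each other apart from the Klk1 probe sets, while Klk1 on 1415837_at correlated with Klk1b24 at 0.262 and with Klk1b21 at -0.09.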

How the data were processed

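Signals of 42 arrays (brain, liver and testis of 14 males, 7 genotypes) were used as deposited. The authors deposited intensity values, for which the submitters' processing notes name MAS5. Not given in the sources used here are its version and any detection calls. Trimmed means of 496.872 to 498.587 per array (2% cut from each end) show a shared scaling. Testis array medians were 95 to 158, and 2 arrays per genotype limit precision. Genes were named from the platform annotation (34945 probe sets with 1 symbol, 932 with several, 9160 with none).

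Values were taken as log2(signal + 31), 31 being the 20th percentile of all values, and a probe set was tested where its mean log2 value over the arrays fitted reached the 40th percentile of all probe sets. In testis limma 3.58.1 (R 4.3.3; lmFit, eBayes with trend, 7 residual degrees of freedom) was fitted to 14 arrays, with two-sided Benjamini-Hochberg adjusted p-values. All 42 arrays were fitted by tissue and genotype with the male as a random block (correlation 0.246), since arrays of a male deviated together (14 of 14 correlations over 0.1, 0.124 to 0.392; the pairing comes from the labels). Scripts were tested on simulated data.

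Members and gene lists were chosen with earlier results of these data known. Named were all members; up to 6 genes per list and parental contrast, those with the largest called differences and no overlap between arrays; and up to 5 genes most like each member (no kallikrein, no _x_at suffix, genotype means spanning at least 1 on the log2 scale). Lists used each gene's single-symbol probe set with the highest testis mean. Alternatives were offsets of 16 and 64, no filter, quantile normalization, no trend, only the groups compared, replicate number as a block or no block, the midparent on the linear scale, and each replicate left out.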

Additional observations from a re-analysis of the deposited data

Results flagged for a closer look

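For 4 probe sets the reciprocal difference, F1 with a musculus mother minus F1 with a musculus father, was not the same in both crosses by the direct test in limma. The domesticus cross minus the castaneus cross was 2.28 for Klk1 on 1415837_at (adjusted p = 0.00321), 2.65 on 1448107_x_at (adjusted p = 0.00228) and 2.70 on 1455977_x_at (adjusted p = 0.00223), and -2.98 for Klk1b24 (adjusted p = 0.0115). In 3 Klk1 probe sets the higher F1 had a musculus mother in one cross and a castaneus mother in the other. The comparison was added after the data were seen.

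For 2 probe sets the parental difference was larger in testis than in liver and brain. Castaneus minus musculus exceeded its liver value by 4.42 for Klk1b24 (adjusted p = 1.77e-07) and by 2.86 for the Klk1b9 and Klk1b22 probe set (adjusted p = 0.00288). Domesticus minus musculus exceeded it by 2.69 (adjusted p = 0.000197) and 2.37 (adjusted p = 0.0102). Each p is from the F test in limma of whether the difference varied among the 3 tissues, not from a test against liver alone.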

How the results depend on the processing

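No member probe set changed the sign of a called difference under any alternative run. Counts of called members stayed within 1.5 times the main one except as follows. With no filter, 8 probe sets were tested and 8 were called for testis against liver and against brain, and 4 and 4 for the dependence on tissue of the domesticus and castaneus differences. The reciprocal count of the domesticus cross fell from 2 to 0 with no filter, quantile normalization, no trend and only the groups compared. The musculus x castaneus F1 count against the midparent fell from 4 to 2 with a linear midparent, and the musculus x domesticus F1 count against domesticus from 2 to 1 with only the groups compared. Leaving out 1 replicate gave 1 to 2 calls for castaneus minus domesticus, 1 to 5 for the musculus x castaneus and 0 to 1 for the castaneus x musculus F1 against the midparent, 0 to 0 and 3 to 5 for the reciprocal domesticus and castaneus crosses, 0 to 2 and 1 to 2 for the musculus x domesticus and domesticus x musculus F1 against domesticus, 1 to 2 for the castaneus x musculus F1 against castaneus, and 1 to 2 for each dependence on tissue. A group then had 1 array, assumed to vary like the others.

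Over all probe sets, leaving out 1 array gave 2039 to 2265 calls in place of 3460 for domesticus and 2130 to 2356 in place of 3642 for castaneus against musculus, 6 to 38 in place of 55 and 3447 to 7625 in place of 7687 for the reciprocal domesticus and castaneus crosses, and 659 to 1995 in place of 1778 for the difference of the reciprocal differences. It gave 1817 to 2027 in place of 3349 for castaneus minus domesticus, 202 to 233 (479) and 173 to 199 (439) for the 2 F1 against domesticus, 4175 to 5589 (7406) and 275 to 437 (605) for those against castaneus, and 1787 to 2100 (3177) and 1817 to 2221 (3537) for the dependence on tissue, which no block of males put at 1885 and 1959. Only the groups compared gave 2 for the reciprocal domesticus cross, and a linear midparent 6, 5 and 25 in place of 79, 73 and 81 for the other F1. Quantile normalization moved the median of all probe sets by -0.20 in the reciprocal castaneus comparison and by -0.12 in the musculus x castaneus F1 against the midparent, and the share of calls that were higher from 62.9% to 44.8% and from 62.0% to 51.1%. It moved the median by 0.19 for testis minus brain and 0.15 for the difference of the reciprocal differences.

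Same-numbered testis arrays did not deviate together (10 of 21 correlations over 0.1, -0.390 to 0.306). The replicate block kept every member call and added 1 each for the difference of the reciprocal differences (5) and for the musculus x castaneus F1 against castaneus (4); without the block of males, calls over the 3 tissues kept their counts of 4, 4, 2 and 2.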
